A study of Mus musculus with 5 samples.

Results

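The 45 genes described here encode the machinery and regulators of DNA replication and S phase. They were taken as the rows of the deposited count table whose gene symbol is on a list of 45 symbols, with no threshold on a measured value, and all 45 were found among 27919 rows with a symbol. The series measured polyadenylated RNA of mouse forebrain at stage E12.5 by sequencing, and compared 3 EedcKO libraries with 2 wild-type (WT) libraries. Both groups were untreated C57BL/6 embryos described as littermates. The Eed protein is part of the Polycomb machinery that silences developmental genes through histone methylation. EedcKO libraries come from mutants in this gene. The driver of the deletion, the deleted exons and the number of embryos per library are not named in the sources used here.

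Before a cell enters S phase, the origin recognition complex with Cdc6 and Cdt1 loads the Mcm2 to Mcm7 helicase onto origins. Kinases then convert the loaded helicase into an active one by adding Cdc45 and the GINS complex, and DNA polymerases copy the unwound strands behind it. Many of these genes are transcribed under control of E2F factors, which D-type and E-type cyclins release from the retinoblastoma proteins. In the embryonic forebrain they are transcribed in dividing progenitors along the ventricle and go down as cells become neurons. In whole tissue, fewer cycling cells and less RNA per cycling cell cannot be told apart.

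The libraries held 4820630 to 5026381 counts. The targeted gene went against 1 label. Eed had 251, 233 and 247 counts in EedcKO 1, 2 and 3, against 404 in WT 1 and 238 in the library labelled WT 2; reads from undeleted exons may remain in this count. The 39 HOX genes, classical Polycomb targets, summed to 85, 184 and 62 counts in EedcKO 1, 2 and 3, 2 counts in WT 1 and 134 in the library labelled WT 2. Every direction below is therefore drawn against a WT group in which 1 library had Eed and HOX counts like those of EedcKO. By Xist and Y-linked counts, EedcKO 1 and both WT libraries were female and EedcKO 2 and 3 male. Forebrain identity genes were present in all libraries: Lhx2 ranged from 194 to 338 CPM and Emx2 from 83.9 to 137 CPM, where CPM is the count relative to library size after TMM scaling (an edgeR factor that evens out library composition).

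None of the 45 genes passed the test, but nearly all were slightly higher in EedcKO. With edgeR's quasi-likelihood test over 13989 genes, 0 of 45 had an adjusted p under 0.05, the threshold used throughout, where 1.04% of all genes tested were called higher and 2.17% lower. At an unadjusted p under 0.05, 20 of 45 were higher and 0 lower, where 7.7% of all genes were higher and 9.51% lower. The log2 fold change (EedcKO over WT) was above 0 for 43 of 45, where 51.6% of all genes had a value above 0. Its median was 0.25 over the 45 genes, a 1.19-fold difference, and 0.01 over all genes tested. The range ran only from -0.11 for Ccnd1 to 0.58 for Orc1. No member reached a 1.5-fold difference in either direction, with Orc1 closest at 1.499-fold. Of the 13989 genes tested, 1730 reached it, with higher and lower genes pooled. The widest values were more often negative, with 546 genes below a log2 fold change of -1 and 182 above 1. For 33 of 45 every EedcKO library lay above both WT libraries (16.4% of all genes), and for 2 every EedcKO library lay below both (17.4%). limma-voom also called 0 of the 45 (0.901% of all genes higher), and DESeq2 called 3 as higher, Ccnd2, Pole and Mcm4 (1.86%). With edgeR, 3 were called higher with library size as the scale (1.64% of all genes), 2 without a filter on low counts (1.18%) and 0 with the replicate number as a block (0%). limma-trend on log2 of TPM called 1 with a pseudocount of 1 (0.556%) or 0.1 (0.665%).

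**Figure D1:**
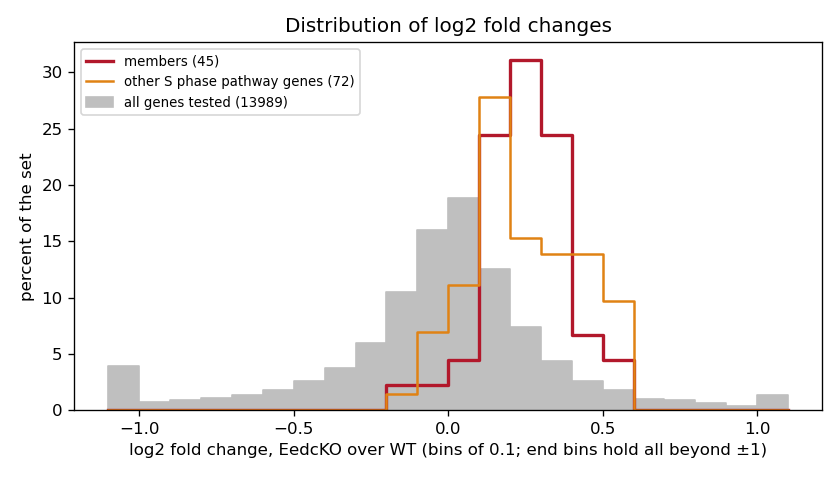
Percent of genes in each bin of log2 fold change, EedcKO over WT, for the 45 members (red line), 72 other S phase pathway genes (orange line) and all 13989 genes tested (grey area). The members' peak lies to the right of 0, with a median of 0.25 against 0.01 for all genes, and the grey area alone reaches the outermost bins.

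When single libraries were left out the members' median stayed between 0.19 and 0.30, while calls came and went. Without the library labelled WT 2, 43 of 45 were above 0 (51.8% of all genes) with a median log2 fold change of 0.30. Cdc45 and Ccnd2 then passed as higher (edgeR adjusted p = 0.0411 and 0.0353; 2.07% of all genes). Without WT 1, 40 of 45 were above 0 (48.9% of all genes) with a median of 0.19. Ccnd2, Pole and Pola1 then passed as higher (edgeR adjusted p = 0.0307, 0.0292 and 0.0428; 3.01% of all genes). No member passed in edgeR without EedcKO 1, 2 or 3, where 19, 16 and 16 were higher at an unadjusted p under 0.05 (5.86%, 5.36% and 6.05% of all genes) and the medians were 0.25, 0.28 and 0.21. At an adjusted p under 0.05 these 3 fits called 0.701%, 0.152% and 0% of all genes higher. Among the female libraries alone, which set EedcKO 1 against both WT libraries, 41 of 45 were above 0 (49.4% of all genes) with a median of 0.22. There edgeR called no member or other gene higher, and 5 members were higher at an unadjusted p under 0.05 (2.62% of all genes).

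**Figure D2:**
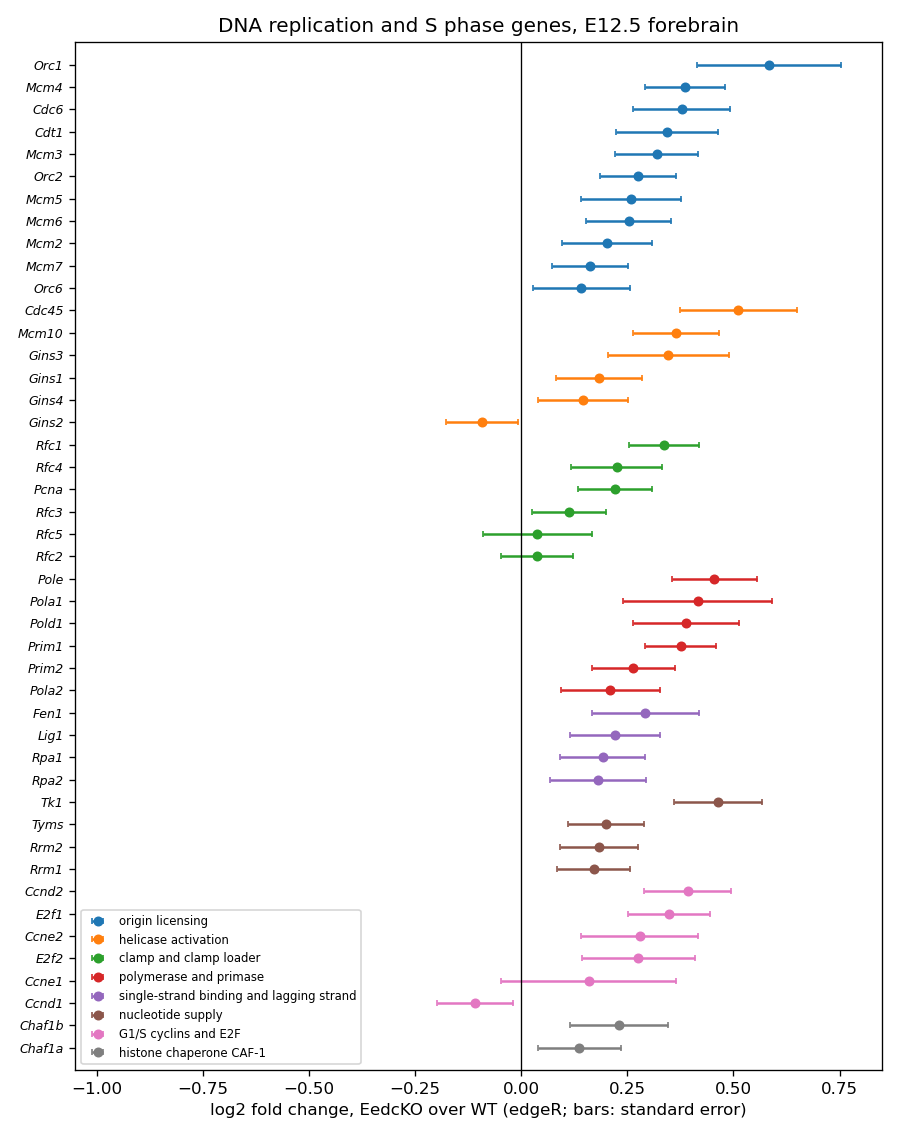
Log2 fold change, EedcKO over WT, of each of the 45 genes, grouped and coloured by role, with the standard error from edgeR as bars. Points lie to the right of the zero line except Gins2 and Ccnd1, and the largest values belong to Orc1 (0.58) and Cdc45 (0.51).

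Promoter sequences are given for 6 members, 4 of them picked with a match to the E2F site and 2 without one. RefSeq promoter sequences (250 bases before to 50 after the start, build GRCm38.p6) were at hand for 35 members. The E2F site was searched as TTTCCCGC, TTTGGCGC, TTTCGCGC and TTTGCCGC on both strands. At least 1 of these stood in the promoters of 13 of 35 members (37.1%). The share was 2.605% of the 27025 genes with a promoter sequence, whether or not they were tested here. The fourth spelling was found in no member's window. CCAAT, the box bound by NF-Y, stood on either strand in 22 of 35 (62.9%), against 41.1% of the same 27025 genes. CCAAT is not contained in any of the E2F spellings, while E2F matches on opposite strands can overlap each other. Members with an E2F match had a median log2 fold change of 0.32 (range 0.11 to 0.58) and the 22 without one 0.22 (0.04 to 0.51), so these ranges overlap almost completely. A match is a run of letters in the window and not a measured binding site. The first 4 sequences below are the members with an E2F match and the smallest p, with that match in capitals and CCAAT left in lower case. The last 2 are the members without an E2F match and the smallest p, with a CCAAT match in capitals in Prim1 and no match in Tk1.
Orc1 (chr4:108579204-108579503, plus strand): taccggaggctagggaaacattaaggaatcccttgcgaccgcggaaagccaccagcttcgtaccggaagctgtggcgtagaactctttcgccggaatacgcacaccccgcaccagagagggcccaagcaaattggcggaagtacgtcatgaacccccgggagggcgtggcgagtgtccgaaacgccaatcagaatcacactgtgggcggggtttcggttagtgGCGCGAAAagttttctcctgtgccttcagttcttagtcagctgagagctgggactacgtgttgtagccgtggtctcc
Cdc6 (chr11:98907901-98908200, plus strand): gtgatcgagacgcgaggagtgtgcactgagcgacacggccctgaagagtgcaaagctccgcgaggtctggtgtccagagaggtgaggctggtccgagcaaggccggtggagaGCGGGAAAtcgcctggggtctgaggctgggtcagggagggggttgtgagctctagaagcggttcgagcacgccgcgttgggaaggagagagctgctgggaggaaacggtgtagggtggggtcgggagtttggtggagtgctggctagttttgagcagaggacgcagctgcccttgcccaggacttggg
Mcm3 (chr1:20820263-20820562, minus strand): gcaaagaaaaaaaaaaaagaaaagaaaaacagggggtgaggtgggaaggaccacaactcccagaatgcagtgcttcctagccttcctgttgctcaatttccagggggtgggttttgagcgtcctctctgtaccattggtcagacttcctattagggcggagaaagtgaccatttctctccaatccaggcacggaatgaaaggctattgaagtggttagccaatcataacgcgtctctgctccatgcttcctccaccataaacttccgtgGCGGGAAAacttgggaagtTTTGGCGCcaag
Pold1 (chr7:44548766-44549065, minus strand): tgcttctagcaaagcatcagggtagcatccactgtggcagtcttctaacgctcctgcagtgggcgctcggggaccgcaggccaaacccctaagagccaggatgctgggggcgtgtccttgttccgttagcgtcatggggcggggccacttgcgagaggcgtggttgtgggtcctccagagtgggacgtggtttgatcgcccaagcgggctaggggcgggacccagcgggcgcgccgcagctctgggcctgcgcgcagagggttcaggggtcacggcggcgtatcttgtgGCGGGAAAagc
Tk1 (chr11:117825965-117826264, minus strand): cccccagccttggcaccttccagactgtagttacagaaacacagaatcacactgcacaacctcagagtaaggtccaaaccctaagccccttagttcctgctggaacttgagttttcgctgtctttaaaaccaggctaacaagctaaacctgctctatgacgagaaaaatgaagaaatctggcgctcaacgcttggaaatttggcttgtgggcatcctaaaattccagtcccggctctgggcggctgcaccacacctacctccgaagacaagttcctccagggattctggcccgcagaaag
Prim1 (chr10:128014965-128015264, plus strand): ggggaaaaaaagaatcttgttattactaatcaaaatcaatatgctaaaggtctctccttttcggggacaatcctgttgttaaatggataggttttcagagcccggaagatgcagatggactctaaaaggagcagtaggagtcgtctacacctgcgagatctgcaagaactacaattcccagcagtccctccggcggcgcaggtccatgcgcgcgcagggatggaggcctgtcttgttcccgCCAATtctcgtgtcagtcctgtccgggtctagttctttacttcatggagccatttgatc
In Orc1 the match begins 27 bases before the RefSeq start, in Cdc6 138 bases before it, and in Mcm3 (both matches) and Pold1 it lies after the start. In the GENCODE annotation Orc1 and Cdc6 begin earlier, at 108579423 and 98907801, and both matches lie after those starts. The whole Cdc6 window lies inside the GENCODE gene.

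The 11 origin licensing genes were all above 0 (51.6% of all genes), with a median log2 fold change of 0.28. Of these, 7 were higher at an unadjusted p under 0.05 (7.7% of all genes). Orc1, the large subunit that takes the origin recognition complex to chromatin (chromosome 4, 108579423 to 108614833, mm10), was the least abundant member by TPM (the deposited abundance scaled by transcript length), at a mean of 26.3 TPM over all libraries. It had 24.0, 20.3 and 21.3 CPM in EedcKO 1, 2 and 3, against 13.7 in WT 1 and 15.5 in the library labelled WT 2. These groups did not overlap, and the log2 fold change of 0.58 (SE 0.17) was the largest of the 45 but did not pass (edgeR adjusted p = 0.123). Orc2, a further subunit, averaged 96.4 ± 5.09 CPM in EedcKO and 79.7 ± 0.286 CPM in WT (SD, n = 3 and 2), whereas Orc6 overlapped between the groups. Nif3l1 shares 29.8% of Orc2's exon bases on the opposite strand, and the strand setting of the counting is not named in the sources used here.

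The loading factors went the same way. Cdc6, the ATPase that recruits the helicase, had 51.8, 56.3 and 60.9 CPM in EedcKO 1, 2 and 3, against 41.5 in WT 1 and 45.1 in the library labelled WT 2. Cdt1, its partner in loading, averaged 69.5 ± 7.44 CPM in EedcKO and 54.8 ± 4.16 CPM in WT (SD, n = 3 and 2). The groups did not overlap for either gene, and neither passed (log2 fold change 0.38 and 0.34, edgeR adjusted p = 0.136 and 0.190).

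The helicase subunits Mcm2 to Mcm7 were more even in level than the GINS or clamp loader subunits. Per length, the subunit levels spanned 1.62-fold to 1.68-fold within an EedcKO library, 1.61-fold within WT 1 and 1.46-fold within the library labelled WT 2, with Mcm2 the lowest and Mcm3 the highest in each library. Their summed level was 1241, 1324 and 1402 TPM in EedcKO 1, 2 and 3, against 1074 TPM in WT 1 and 1106 TPM in the library labelled WT 2. Mcm4 (chromosome 16, 15623897 to 15637400) had 171, 174 and 194 CPM in EedcKO 1, 2 and 3, against 142 in WT 1 and 133 in the library labelled WT 2, and the log2 fold change was 0.39 (SE 0.09, edgeR adjusted p = 0.0765). Mcm3 had 188, 198 and 220.0 CPM in EedcKO 1, 2 and 3, against 159.8 in WT 1 and 164 in the library labelled WT 2 (log2 fold change 0.32, edgeR adjusted p = 0.139). Both stood above WT in every EedcKO library (16.4% of all genes) without passing, as did Mcm6 (0.25) and Mcm7 (0.16). For Mcm2 (0.20) and Mcm5 (0.26) the lowest EedcKO library, EedcKO 1, fell within the WT range.

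**Figure D3:**
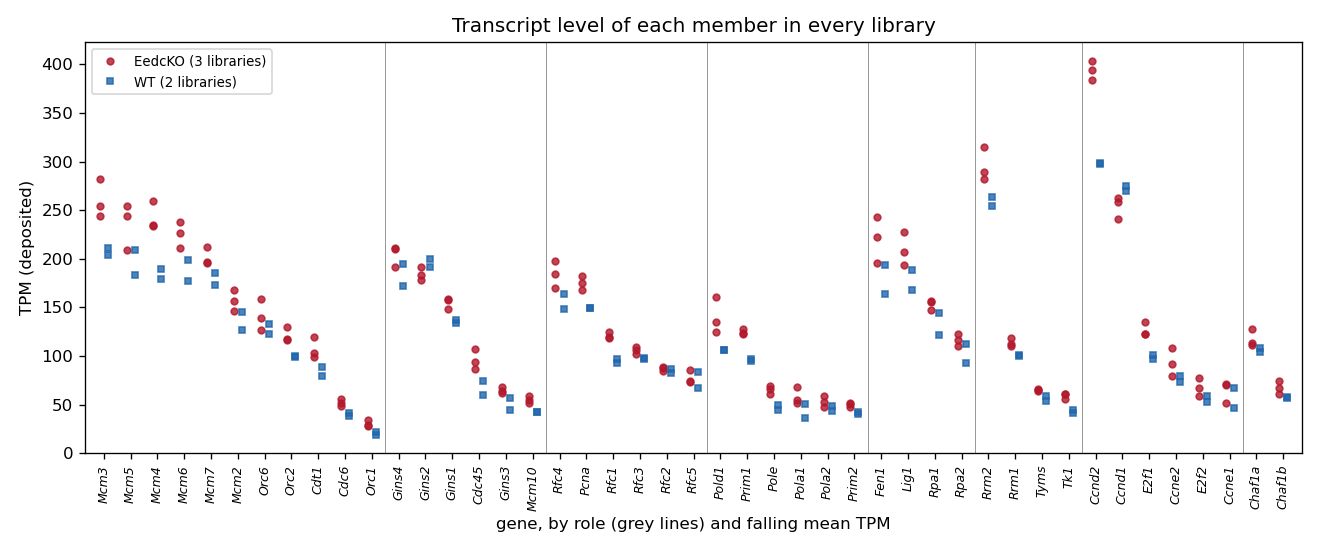
Deposited TPM of each member in every library, EedcKO as red circles and WT as blue squares, with genes ordered by role and by falling mean. Ccnd2 is the most abundant, with 384 to 403 TPM in EedcKO and 298 to 299 TPM in WT, and Orc1 the least.

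Among the 6 genes of helicase activation, Cdc45 differed most. Cdc45, which joins the loaded helicase to make it active (chromosome 16, 18780447 to 18811987), had 67.7, 63.1 and 78.3 CPM in EedcKO 1, 2 and 3, against 43.8 in WT 1 and 53.9 in the library labelled WT 2. The groups did not overlap and the log2 fold change was 0.51 (SE 0.14, edgeR adjusted p = 0.0980). It was 0.68 without the library labelled WT 2, where it passed, and 0.36 without WT 1, where it did not. Mcm10, which helps to start unwinding, averaged 87.2 ± 6.99 CPM in EedcKO and 67.7 ± 0.857 CPM in WT (SD, n = 3 and 2; log2 fold change 0.37, edgeR adjusted p = 0.105).

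None of the 4 GINS subunits, which form 1 complex in the cell, passed the test, and differences among them were not tested. Gins3 (0.35), Gins1 (0.18) and Gins4 (0.14) had log2 fold changes above 0. Gins4, the most abundant of the helicase activation genes per length, had 58.3, 53.4 and 58.8 CPM in EedcKO 1, 2 and 3, against 48.5 in WT 1 and 54.3 in the library labelled WT 2, with overlapping groups. Gins2 had 149, 156 and 163.6 CPM in EedcKO 1, 2 and 3, against 164.2 in WT 1 and 169 in the library labelled WT 2 (log2 fold change -0.09, SE 0.08, edgeR adjusted p = 0.660). All its EedcKO libraries lay below WT, by a difference close to its standard error. Of Gins2's exon bases, 67.3% are shared with Gse1 on the opposite strand. Gse1 averaged 273 CPM in EedcKO and 282 CPM in WT (log2 fold change -0.05), and its part in the Gins2 count was not tested.

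In all, 18 members share exon bases with another gene in the GENCODE annotation, and 10 share more than 10% of theirs: Ccnd1, Ccne2, Chaf1a, Fen1, Gins2, Orc1, Orc2, Rfc2, Rfc4 and Rfc5. Among these 10, 8 were above 0 with a median log2 fold change of 0.18, 5 had every EedcKO library above both WT libraries, and 2 were higher at an unadjusted p under 0.05. Among the other 35, 35 were above 0 with a median of 0.26, 28 had every EedcKO library above both WT libraries, and 18 were higher at an unadjusted p under 0.05. Over all genes tested, 16.4% had every EedcKO library above both WT libraries and 7.7% were higher at that p.

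The clamp Pcna, the ring that tethers polymerases to DNA, had 89.4, 83.4 and 87.3 CPM in EedcKO 1, 2 and 3, against 74.8 in WT 1 and 74.0 in the library labelled WT 2. Its groups did not overlap and it did not pass (log2 fold change 0.22, SE 0.09, edgeR adjusted p = 0.247). Of the 5 clamp loader subunits Rfc1, the largest (chromosome 5, 65261850 to 65335670), had the widest difference. It had 154, 149 and 148 CPM in EedcKO 1, 2 and 3, against 122 in WT 1 and 116 in the library labelled WT 2. EedcKO and WT did not overlap, and the log2 fold change was 0.34 (SE 0.08, edgeR adjusted p = 0.0753). Rfc4, the most abundant of the group per length at a mean of 173 TPM, averaged 58.3 ± 3.85 CPM in EedcKO and 49.8 ± 3.11 CPM in WT (SD, n = 3 and 2; log2 fold change 0.23, edgeR adjusted p = 0.340). Rfc3 (0.11), Rfc2 (0.04) and Rfc5 (0.04) differed least. Rfc5, with the widest WT spread of the subunits, shares 10.7% of its exon bases with Wsb2 on the opposite strand, and Wsb2 had a log2 fold change of -0.29.

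The 6 polymerase and primase genes had the highest median of the roles, 0.38. Of these, 5 were higher at an unadjusted p under 0.05 (7.7% of all genes). Pole, the catalytic subunit of the leading-strand polymerase epsilon (chromosome 5, 110286306 to 110337474), had 157, 139.6 and 153 CPM in EedcKO 1, 2 and 3, against 117 in WT 1 and 102 in the library labelled WT 2. Every EedcKO library lay above both WT libraries, and the log2 fold change was 0.45 (SE 0.10, edgeR adjusted p = 0.0590). Prim1, the catalytic subunit of primase, which lays the RNA primers (chromosome 10, 128015168 to 128030037), was among the tightest within groups. It had 101, 98.3 and 99.6 CPM in EedcKO 1, 2 and 3, against 78.0 in WT 1 and 75.6 in the library labelled WT 2 (log2 fold change 0.38, SE 0.08, edgeR adjusted p = 0.0593). These adjusted p were, with that of Tk1, the lowest of the 45.

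Pold1, the catalytic subunit of the lagging-strand polymerase delta and the most abundant of the polymerase group per length, varied within EedcKO. It had 124, 136 and 162 CPM in EedcKO 1, 2 and 3, against 108 in WT 1 and 107 in the library labelled WT 2 (log2 fold change 0.39, SE 0.13, edgeR adjusted p = 0.158). Pola1, the catalytic subunit of the priming polymerase alpha, lies on the X chromosome and varied most of this group between the WT libraries. It had 123, 100.3 and 94.9 CPM in EedcKO 1, 2 and 3, against 93.6 in WT 1 and 65.7 in the library labelled WT 2 (log2 fold change 0.42, SE 0.17, edgeR adjusted p = 0.281). EedcKO 2 and 3, the male libraries, stood barely above WT 1, and the log2 fold change was 0.19 without the library labelled WT 2 and 0.68 without WT 1. Prim2 (0.26) and Pola2 (0.21) completed the group.

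None of the 4 genes of single-strand binding and lagging-strand maturation reached an unadjusted p of 0.05 (7.7% of all genes higher, 9.51% lower). Fen1, the flap nuclease that trims Okazaki fragments, was the most abundant of them per length. It had 96.9, 111 and 123 CPM in EedcKO 1, 2 and 3, against 83.1 in WT 1 and 97.0 in the library labelled WT 2 (log2 fold change 0.29, SE 0.13, edgeR adjusted p = 0.292). EedcKO 1 lay just under the library labelled WT 2, so the groups overlapped, and the antisense gene Gm10143 shares 78.8% of Fen1's exon bases. The log2 fold change was 0.22 for Lig1, the ligase that joins the fragments, 0.19 for Rpa1 and 0.18 for Rpa2, subunits of the single-strand binding protein.

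All 4 genes of deoxynucleotide supply were above WT in every EedcKO library (16.4% of all genes), by different amounts. Tk1, the thymidine salvage kinase of cycling cells (chromosome 11, 117815526 to 117826092), had 64.7, 60.2 and 66.2 CPM in EedcKO 1, 2 and 3, against 48.3 in WT 1 and 44.1 in the library labelled WT 2. The log2 fold change was 0.46 (SE 0.10, edgeR adjusted p = 0.0590), the third largest of the members. Tyms, which makes thymidylate, averaged 82.0 ± 0.526 CPM in EedcKO and 71.4 ± 4.61 CPM in WT (SD, n = 3 and 2; log2 fold change 0.20). The ribonucleotide reductase genes were more abundant and closer: Rrm2, the subunit limited to S phase, had 160.4, 166 and 182 CPM in EedcKO 1, 2 and 3, against 148 in WT 1 and 151 in the library labelled WT 2. Its log2 fold change was 0.18 (SE 0.09, edgeR adjusted p = 0.362), and that of Rrm1, the large subunit, 0.17.

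The D-type cyclins, which couple growth signals to entry into S phase, had log2 fold changes of opposite sign, and neither passed. Ccnd2 (chromosome 6, 127125162 to 127152193) was the most abundant member, with 740.4, 768 and 790.2 CPM in EedcKO 1, 2 and 3, against 587 in WT 1 and 580.0 in the library labelled WT 2. The WT libraries were almost equal and each EedcKO library was higher, and the log2 fold change was 0.39 (SE 0.10, edgeR adjusted p = 0.0903). Ccnd2 passed with DESeq2 (adjusted p = 0.000518) and without either WT library, but not without any 1 of the EedcKO libraries. Ccnd1 (chromosome 7, 144929931 to 144939925) had 253, 234 and 254 CPM in EedcKO 1, 2 and 3, against 270.3 in WT 1 and 263 in the library labelled WT 2 (log2 fold change -0.11, SE 0.09, edgeR adjusted p = 0.617). Per length, Ccnd2 exceeded Ccnd1 by 1.46, 1.64 and 1.56 times in EedcKO 1, 2 and 3, against 1.09 times in WT 1 and 1.11 times in the library labelled WT 2. LTO1 shares 23.4% of Ccnd1's exon bases on the opposite strand and had a log2 fold change of -0.12, and its part in the Ccnd1 count was not tested.

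E2f1 and E2f2, activator E2F factors and themselves E2F targets, were above WT in every EedcKO library (16.4% of all genes), E2f2 only barely. E2f1 had 79.1, 80.1 and 88.6 CPM in EedcKO 1, 2 and 3, against 66.4 in WT 1 and 63.4 in the library labelled WT 2 (log2 fold change 0.35, SE 0.10, edgeR adjusted p = 0.107). E2f2 had 66.6, 59.8 and 78.7 CPM, against 54.0 in WT 1 and 59.0 in the library labelled WT 2 (0.28, SE 0.13, edgeR adjusted p = 0.349). Before scaling, EedcKO 2 had 289 E2f2 counts and the library labelled WT 2 had 290. The E-type cyclins, which drive origin firing with Cdk2, were less steady. Ccne1 ranged from 28.1 to 39.2 CPM in EedcKO and from 25.9 to 37.0 CPM in WT, and the log2 fold change was 0.16 (SE 0.21). Ccne2 had 77.7, 66.2 and 57.8 CPM in EedcKO 1, 2 and 3, against 57.8 in WT 1 and 53.1 in the library labelled WT 2, so EedcKO 3 and WT 1 were level. Chaf1a and Chaf1b, subunits of the histone chaperone that deposits nucleosomes behind the fork, had log2 fold changes of 0.14 and 0.23 (edgeR adjusted p = 0.554 and 0.372). Chaf1b had 58.3, 64.8 and 72.6 CPM in EedcKO 1, 2 and 3, against 55.4 in WT 1 and 55.7 in the library labelled WT 2.

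**Figure D4:**
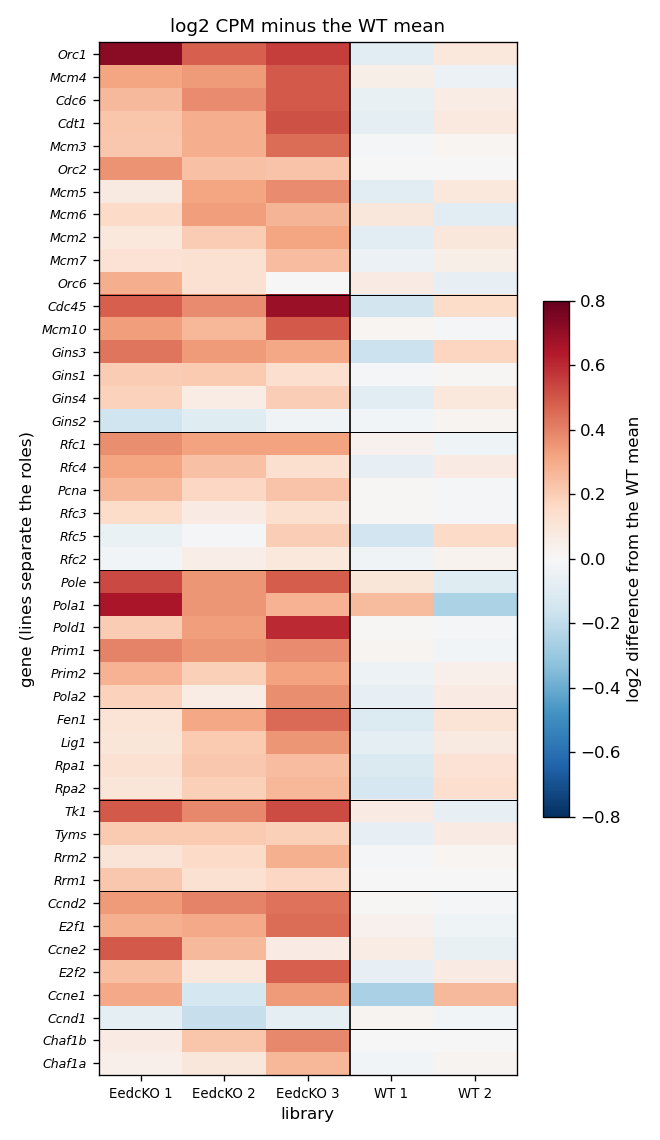
Log2 CPM of each member in each library minus the mean of the WT libraries, on a colour scale from blue (lower) to red (higher), with lines between roles. The EedcKO columns are mostly red, EedcKO 3 most deeply, while Gins2 and Ccnd1 are pale blue across EedcKO.

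The libraries within a group were not alike for these genes. EedcKO 3 was the highest library for 27 of the 45 members (60.0%, against 19.7% of all genes tested) and EedcKO 1 for 13 (28.9%, against 20.1%). WT 1 was the lowest for 27 (60.0%, against 23.0%) and the library labelled WT 2 for 16 (35.6%, against 27.7%). Summed over the members, the level was 6098, 6064 and 6415 TPM in EedcKO 1, 2 and 3, against 5126 TPM in WT 1 and 5361 TPM in the library labelled WT 2. Of the 22 members above the median GC content, 21 were higher in EedcKO 3 than in EedcKO 1, and of the other 23, 9 were. Across the 45 genes, which are not independent, the log2 difference of EedcKO 3 from EedcKO 1 had a Pearson r of 0.74 and a Spearman rho of 0.71 with the GC content of the longest annotated transcript. Over 13794 of all genes tested the same values were 0.20 and 0.45. The difference ran from -0.43 for Ccne2 (36.3% GC) to 0.39 for Pold1 (61.0% GC). The fold change between genotypes had an r of -0.05 and a rho of -0.06 with GC content over the members, and -0.13 and -0.19 over all genes: members above the median GC content had a median log2 fold change of 0.23 and the others 0.26.

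**Figure D5:**
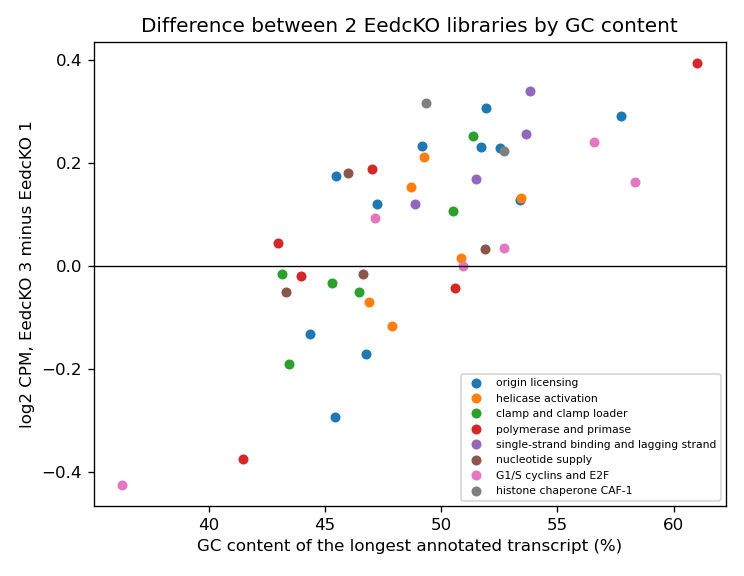
Log2 difference in CPM between EedcKO 3 and EedcKO 1 against the GC content of the longest annotated transcript (percent) for each of the 45 members, coloured by role. Points rise from Ccne2 at the lower left (-0.43) to Pold1 at the upper right (0.39), with r = 0.74.

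With a smooth trend on GC content and on transcript length removed from each library, a choice made after the data were seen, the members' median log2 fold change was 0.22 and 43 of 45 were above 0 (49.1% of all genes). In that fit 11 members passed as higher, where 2.49% of all genes did: Ccnd2, Cdc45, Cdt1, E2f1, Mcm3, Mcm4, Pold1, Pole, Prim1, Rfc1 and Tk1.

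Other genes of the pathway differed in the same direction, and 4 of them rose. Of 72 tested genes that are no members, 4 passed as higher and 0 as lower (1.04% and 2.17% of all genes). Of the 72, 66 were above 0 (51.6% of all genes), and the median log2 fold change was 0.23. Timeless, of the fork protection complex, rose to 120.3, 118 and 133 CPM in EedcKO 1, 2 and 3, against 90.4 in WT 1 and 85.2 in the library labelled WT 2 (log2 fold change 0.50, SE 0.10, edgeR adjusted p = 0.0390). Clspn, the adaptor of the replication checkpoint, rose to 108, 103 and 116 CPM, against 81.6 in WT 1 and 76.2 in the library labelled WT 2 (0.47, SE 0.09, edgeR adjusted p = 0.0450). Ticrr, which brings activation factors to the loaded helicase, rose to 111, 101 and 119.7 CPM, against 81.2 in WT 1 and 70.7 in the library labelled WT 2 (0.54, SE 0.11, edgeR adjusted p = 0.0484). Cdk2, the kinase partner of the E-type cyclins, rose to 111, 103 and 115 CPM, against 76.9 in WT 1 and 80.9 in the library labelled WT 2 (0.47, SE 0.09, edgeR adjusted p = 0.0391). None of these 4 passed without EedcKO 1, 2 or 3. Without the library labelled WT 2, Cdk2 and the transcription factor Mycn passed, and without WT 1 Timeless, Clspn and Ticrr passed with 7 others.

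By list, licensing and helicase genes held 3 of these calls among 18 tested, and G1/S control held Cdk2 among 20. Of all genes tested, 1.04% were called higher. The polymerase and fork list had no call of 16 (Dna2, a nuclease-helicase, 0.49; Chtf18, of an alternative clamp loader, 0.46), nor had nucleotide supply of 10 (Shmt1, of folate metabolism, 0.46). The list set up for histone supply and chromatin assembly, which also held Usp1, had none of 8 (Hells, a chromatin remodeler, 0.52, and Usp1 0.37). Their edgeR adjusted p were 0.130, 0.184, 0.0957, 0.0633 and 0.0941 in that order.

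The brakes and the next phase of the cycle were read beside S phase. Of 6 tested CDK inhibitor genes none passed. At an unadjusted p under 0.05 edgeR had 2 higher and 1 lower (7.7% and 9.51% of all genes). Cdkn1c, an inhibitor that marks cells leaving the cycle, had 123, 133 and 119 CPM in EedcKO 1, 2 and 3, against 156 in WT 1 and 177 in the library labelled WT 2 (log2 fold change -0.41, SE 0.10, edgeR adjusted p = 0.0706). Cdkn2c, an inhibitor of the D-type cyclin kinases, had 55.5, 72.2 and 78.5 CPM, against 39.4 in WT 1 and 50.01 in the library labelled WT 2 (0.62, SE 0.17, edgeR adjusted p = 0.111). For each, EedcKO lay wholly on 1 side of WT. The list's widest log2 fold changes, given here after their values were seen, belonged to genes whose groups overlapped. Cdkn2a had 17, 52 and 23 counts in EedcKO 1, 2 and 3, against 0 in WT 1 and 20 in the library labelled WT 2 (log2 fold change 1.61, edgeR adjusted p = 0.487). Cdkn1a had 131, 153 and 93 counts, against 126 in WT 1 and 344 in the library labelled WT 2 (-0.89, edgeR adjusted p = 0.331). Of 22 tested mitosis genes 22 were above 0 (51.6% of all genes) with a median of 0.29. Of these, 2 rose (1.04% of all genes): the phosphatase Cdc25c (0.78, edgeR adjusted p = 0.0156) and Birc5 (0.42, edgeR adjusted p = 0.0489). The mitosis sum was 4180, 3785 and 4032 CPM in EedcKO 1, 2 and 3, against 3325 in WT 1 and 2906 in the library labelled WT 2.

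Markers of cell types that hold few or many dividing cells moved beside these genes. Of 15 radial glia and neural progenitor genes, the cells that divide at the ventricle, 12 were above 0 (51.6% of all genes). Pax6 and Slc1a3 rose (0.65 and 0.68, edgeR adjusted p = 0.0286 and 0.0156), so 2 of 15 did against 1.04% of all genes. The progenitor genes Sox2 (-0.07), Vim (0.03) and Nes (0.09) overlapped between groups. That list summed to 2860, 2811 and 3060 CPM in EedcKO 1, 2 and 3, against 2551 in WT 1 and 2459 in the library labelled WT 2, so its order of groups was that of the replication genes. With libraries scaled to an equal sum of these 15 genes, a choice made after the data were seen, the median of all genes tested shifted to -0.21 and that of the members to 0.040. There 27 members were above 0 (18.9% of all genes), none passed in edgeR (0.765% of all genes higher, 8.94% lower), and 1 was higher and 2 lower at an unadjusted p under 0.05 (2.27% and 27% of all genes). Intermediate progenitor genes summed to 1111, 1362 and 1330 CPM in EedcKO 1, 2 and 3, against 887 CPM in each WT library. Of these 9 genes 4 rose (Eomes, Neurog1, Neurog2 and Sstr2), against 1.04% of all genes. Genes of postmitotic neurons summed to 3399, 3512 and 3292 CPM in EedcKO 1, 2 and 3. They summed to 4378 in WT 1 and 3620 in the library labelled WT 2. Of these 15 neuron genes 3 fell (Mapt, Nefl and Syt1), against 2.17% of all genes. Whether these shifts account for the difference in the replication genes was not tested.

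Genes of blood and surface epithelium were highest in 1 WT library. Erythroid genes, whose precursors divide at this age, summed to 443, 303 and 258 CPM in EedcKO 1, 2 and 3, against 265 in WT 1 and 662 in the library labelled WT 2. Surface epithelium genes summed to 38.8, 25.7 and 30.1 CPM in EedcKO, against 24.5 in WT 1 and 253 in the library labelled WT 2. Krt5, a defining marker of basal epithelium, had 20, 1 and 0 counts in EedcKO 1, 2 and 3, against 0 in WT 1 and 428 in the library labelled WT 2. Endothelial genes ranged from 269 to 373 CPM in EedcKO and from 257 to 341 CPM in WT. Microglia and macrophage genes ranged from 75.6 to 98.2 CPM in EedcKO and from 83.7 to 116 CPM in WT. Meninges and mesenchyme genes were the most uneven within groups, from 446 to 904 CPM in EedcKO and from 442 to 654 CPM in WT. None of these 5 lists had a call (1.04% of all genes higher, 2.17% lower). The members' median log2 fold change was 0.25 with the library labelled WT 2 and 0.30 without it, and the part of these cell types in it was not tested.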

How the data were processed

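Per the labels, forebrain RNA was extracted with Trizol and sequenced with BGISEQ-500 libraries. HISAT2 2.2.0 and mm10 are named in the submitters' processing notes, while the counting tool, annotation, strand and duplicate handling are not named in the sources used here. Deposited by the authors were whole-number counts per gene (56196 rows) and TPM, which are scaled by length and library. Rows without a symbol (28277, with 2.01% to 2.16% of the counts) were left out, and where a symbol recurred, the row holding 99% or more of the counts was kept. The tables held 0 columns of other samples.

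Counts were fitted in R 4.3.3 with edgeR 4.0.16 (filterByExpr, TMM, robust glmQLFit, glmQLFTest on genotype) with Benjamini-Hochberg adjustment over 13989 genes. This edgeR adjusted p is meant throughout, with n = 3 EedcKO and 2 WT libraries, and the SE is the log2 fold change over the square root of F. limma 3.58.1 and DESeq2 1.42.0 served as alternatives, and the fit was also run on simulated counts. The changes put into these began at 1.5-fold, larger than that of any member, of which Orc1 came closest at 1.499-fold. How often smaller differences, like those of the other members, are called was not tested. Depth limits low genes: 3 counts correspond to 0.610 to 0.632 CPM. The labels do not say that libraries come from separate embryos, so p-values measure the spread between libraries. Library pairs differed by 2.56 to 10.4 times the sampling noise per gene, so no pair differed by sampling noise alone. The value was 2.56 to 4.61 between EedcKO libraries and 7.76 to 10.4 between an EedcKO and a WT library. Between WT 1 and the library labelled WT 2 it was 8.06, within the range between the groups. These values cannot tell separate embryos from separate libraries of 1 embryo. Coordinates are from GENCODE M21 (mm10, 1-based).

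The members and lists were chosen with earlier results of these data known. Named in full were, per role, the members with the smallest p, the largest change and the highest TPM. Further members were named to account for the list. Of other lists, calls or the 2 genes with the smallest p were named. One gene that this rule names is not reported here.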

Additional observations from a re-analysis of the deposited data

How the results depend on the processing

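The median log2 fold change of the members stayed above 0 under every alternative run, and no member was called lower in any. Of 448 genes called over the whole table (145 higher, 303 lower), the count was 675 with library size alone, 679 with DESeq2, 244 and 280 with limma-trend on log2 of TPM with a pseudocount of 1 and 0.1, 903 with the GC and length trend removed, and 1358 (107 higher, 1251 lower) when scaled to progenitor genes. In place of 0 members, 3 were called with library size alone, 3 with DESeq2, 2 without a count filter (Pole and Tk1), 1 with either TPM pseudocount (Ccnd2) and 11 with the trend removed. In place of 4 other pathway genes, 9 were called with library size alone, 9 with DESeq2, 7 without a count filter, 0 with either TPM pseudocount, 13 with the trend removed and 0 when scaled to progenitor genes. In that last scaling 3 members had an unadjusted p under 0.05 (1 higher, 2 lower), the median was 0.040 and 27 of 45 were above 0. Of the members named by rule, Gins4 (-0.073), Chaf1a (-0.082) and Rrm2 (-0.034) lay below 0 there, where the scaling itself took the median of all genes to -0.21. Leaving out each library in turn gave 0 to 1012 genes, 0 to 3 members, 0 to 10 other pathway genes and a median of 0.19 to 0.30. The count of 0 genes came without EedcKO 3, where edgeR had 841 higher and 1046 lower at an unadjusted p under 0.05. Fits with 1 WT library assume that it varies like EedcKO. The female libraries alone gave 0 genes (377 higher and 525 lower at an unadjusted p under 0.05), 5 members at that p and 0 other pathway genes.

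Whether the replicate numbers of the titles pair the libraries could not be decided. Deviations of same-numbered libraries correlated at 0.08 and 0.19. With 2 WT libraries, the deviations of 1 mirror those of the other, so these values give no reference for unpaired libraries. With the replicate number as a block, edgeR called 0 genes (1057 higher and 1112 lower at an unadjusted p under 0.05), 0 members and 0 other pathway genes, and the members' median was 0.21. The causes of these moves were not tested. Depth limited the least abundant member most: Orc1 rested on 65 to 115 counts per library.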
